A study of Mus musculus with 6 samples.

Results

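NF-kB and MYD88 signalling genes were examined in plasmacytoid dendritic cells (pDCs) from samples labelled wild type (WT) or knockout (KO) for the transcription factor IRF8. The set was a list of 37 genes named by symbol: adaptors of Toll-like receptors, TRAF and TAB proteins, kinases and subunits of the IkB kinase complex, NF-kB subunits, and IkB proteins with ubiquitin regulators. Of the 37, 33 were measured, among 19937 genes in all, and Traf3, Irak4, Chuk and Nfkb1 were not analysed here. The list was not chosen by a threshold on the values, but it was drawn up with earlier results of these data known.

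The study compared mouse splenic pDCs sorted as B220+ SiglecH+ cells, in 3 samples labelled WT and 3 labelled KO for IRF8. After amplification (NuGen PICO SL) and biotin labelling, RNA was hybridised to Affymetrix arrays, and each level is the deposited log2 value of 1 probe set. Strain, age, sex, the kind of Irf8 deletion, whether it was limited to some cells, and the number of animals per sample are not stated in the labels. The p-values therefore describe the scatter among these samples alone, and that scatter may be technical.

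In pDCs, Toll-like receptors in endosomes sense nucleic acids and recruit the adaptor MYD88, which assembles kinases of the IRAK family. These pass the signal to the ubiquitin ligase TRAF6, to the kinase TAK1 with its TAB partners, and to the IkB kinase complex. That complex marks IkB proteins for degradation, which frees NF-kB dimers to enter the nucleus. NF-kB in turn drives genes of its own inhibitors, among them several IkB proteins and the ubiquitin-editing enzyme encoded by Tnfaip3.

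Irf8 itself was not lower on the array in the samples labelled KO. Its level was 10.14 ± 0.15 (SD, n = 3) in WT and 10.48 ± 0.32 (SD, n = 3) in KO, a difference of 0.34 with an adjusted p of 0.425. The altered part of the gene is not stated, so this probe set does not check the labels. WT and KO are used throughout as the labels give them, and each direction rests on those labels. Both markers behind the sort were bright in all samples. For Siglech, the lectin of the gate, the WT mean was 12.62 and the KO mean 12.27 (adjusted p = 0.169). For Ptprc, the gene of CD45 and its B220 form, they were 11.47 and 11.60 (adjusted p = 0.765). The mean level of 10 measured pDC markers was between 11.30 and 11.44 in WT arrays and between 10.98 and 11.08 in KO arrays. Of these 10, 2 fell and 0 rose, where 2.08% of all genes fell and 2.30% rose. Siglech was among 6 markers lower in every KO array, a pattern that 11.7% of all genes had. In the other direction, 1 marker, Ly6d, was higher in every KO array, as were 8.71% of all genes. Its difference was 0.42 (adjusted p = 0.142). The ones that fell, named after their values were seen, were the chemokine receptor gene Ccr9, with a difference of -0.97 (adjusted p = 0.0221), and Pacsin1, with one of -0.78 (adjusted p = 0.00746).

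Among the 33 measured genes, 2 rose in KO and 0 fell. The risers were Traf1, a TRAF family adaptor of tumour necrosis factor receptors, by 2.31-fold, and Nfkbiz, which encodes the nuclear IkB protein that acts with NF-kB dimers at promoters, by 2.01-fold. These calls used limma with Benjamini-Hochberg adjustment over all genes and a threshold of 0.05. The 2 calls are 6.06% of the set, where 2.30% of all genes were called higher and 2.08% lower. All 33 had mean levels above the 25th percentile of all genes. In a fit of the genes above it alone, 3.34% were called higher and 2.92% lower, with the same 2 of the 33 higher. At an unadjusted limma p under 0.05, 8 genes of the set were higher and 2 lower, where 7.58% of all genes were higher and 8.49% lower. The median difference, KO minus WT, was 0.11 on the log2 scale against -0.04 over all genes, and 23 of the 33 differences (69.7%) were above 0 against 41.8% of all genes. Differences ran from -0.42 for Cyld to 1.21 for Traf1.

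The WT and KO arrays did not overlap for 8 of the 33. Traf1, Tab2, Nfkbia, Nfkbiz and Bcl3 were higher in every KO array, a pattern that 8.71% of all genes had. Irak1, Ikbke and Cyld were lower in every KO array, as were 11.7% of all genes. The other 25 overlapped between the genotypes. For 26 of the 33 the 95% interval of the difference lay within 1 log2 unit on either side of 0. The intervals of Traf1, Irak2, Rel, Nfkbia, Nfkbie, Nfkbiz and Bcl3 reached beyond 1.

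**Figure D1:**
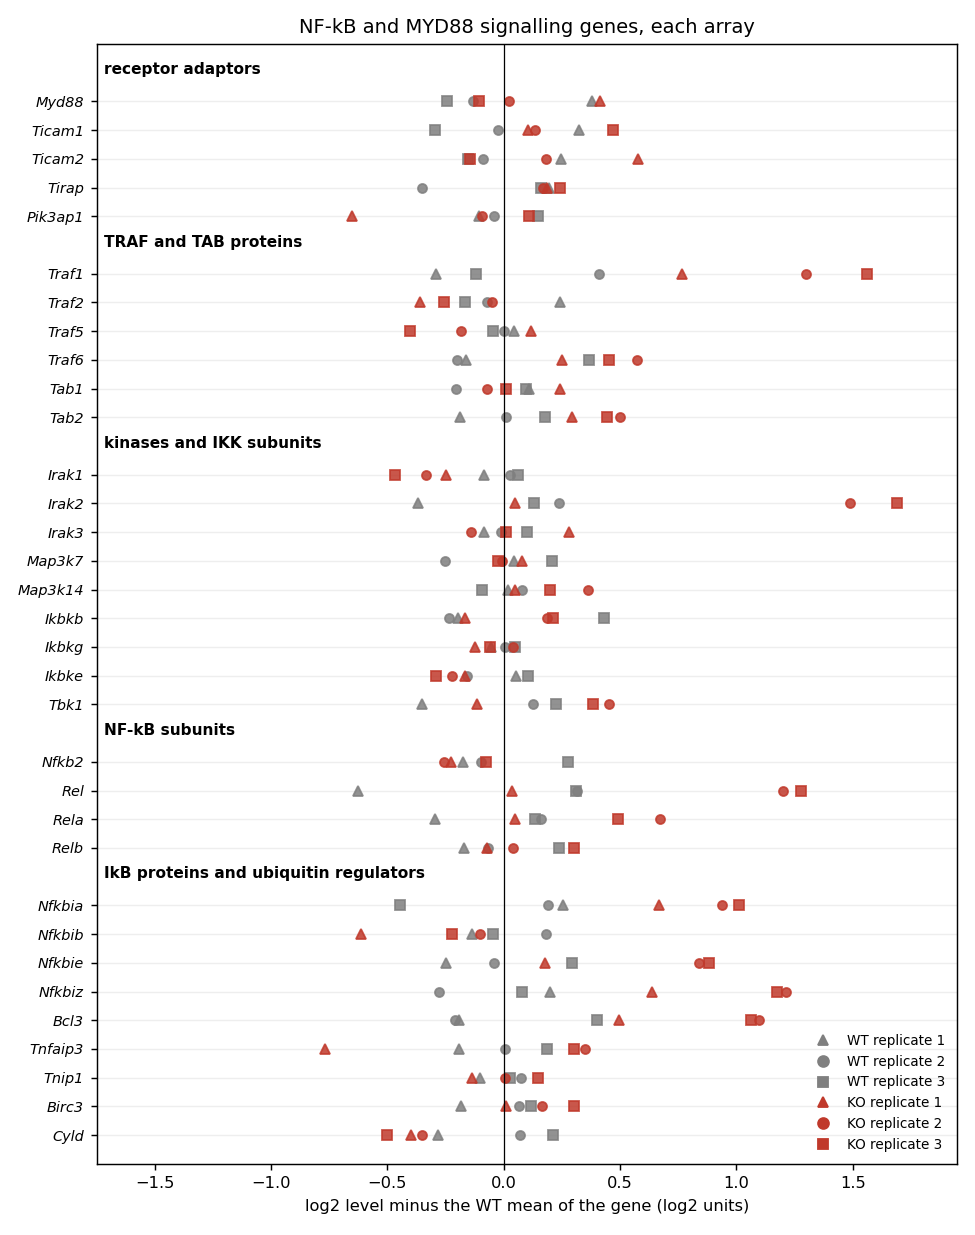
Log2 level of each of the 33 measured genes in each array minus the WT mean of that gene (x axis, log2 units), with genes in rows by role. Grey symbols are WT arrays, red symbols are KO arrays, and the symbol shape gives the replicate number. In most rows the genotypes overlap. Traf1, Tab2, Nfkbia, Nfkbiz and Bcl3 have all red symbols to the right of all grey ones. Irak1, Ikbke and Cyld have them all to the left.

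The 5 receptor adaptors were measured in full, and 0 passed the test. Myd88, the adaptor shared by most Toll-like receptors and the IL-1 receptor family, had levels of 8.23, 7.73 and 7.61 in WT and of 8.27, 7.88 and 7.75 in KO. The array numbered 1 was the highest of each genotype, and the groups overlapped. The difference was 0.11 with a 95% interval from -0.36 to 0.58 (adjusted p = 0.871). Ticam1, the TRIF adaptor of TLR3 and TLR4, differed by 0.24 (adjusted p = 0.625), and its bridging partner Ticam2 differed by 0.20 (adjusted p = 0.717). Tirap, which brings MYD88 to receptors at the membrane, differed by 0.20 (adjusted p = 0.645). Pik3ap1, an adaptor that links Toll-like receptors to phosphoinositide 3-kinase, had a difference of -0.21 (adjusted p = 0.699), with its lowest value of 8.96 in KO replicate 1 and the other 5 arrays between 9.51 and 9.76.

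Of 6 measured TRAF and TAB genes, Traf1 rose. Its levels were 7.48, 8.19 and 7.66 in the WT arrays and 8.54, 9.07 and 9.34 in the KO arrays. Every KO array was above every WT array, and KO replicate 1 was the lowest of the KO arrays. The WT mean was 7.78 ± 0.37 and the KO mean 8.98 ± 0.41 (SD, n = 3 each), and they differed by 1.21 with an SE of 0.25 and an interval from 0.63 to 1.79 (limma adjusted p = 0.0387). An exact two-sided permutation test gave p = 0.1, the smallest that 3 against 3 arrays allow. The call was lost when WT replicate 1, WT replicate 3, KO replicate 2 or KO replicate 3 was left out, with adjusted p-values up to 0.148 and differences no smaller than 1.03.

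Traf6, the ubiquitin ligase downstream of MYD88, had levels of 7.27, 7.23 and 7.80 in WT and of 7.68, 8.003 and 7.88 in KO. WT replicate 3 lay within the KO range, so the groups overlapped. The difference of 0.43 did not pass the test (interval 0.01 to 0.84, adjusted p = 0.295). Tab2, whose product links TAK1 to ubiquitin chains, had levels of 9.06, 9.26 and 9.42 in WT and of 9.54, 9.74 and 9.69 in KO. Its groups did not overlap, and the difference of 0.41 had an adjusted p of 0.158. The remaining 3 were nearer to 0: Traf2 at -0.22, Traf5 at -0.16 and Tab1 at 0.06, with adjusted p-values between 0.550 and 0.901.

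Among kinases and IkB kinase subunits, 9 of 11 were measured and 0 passed the test. Irak2, a kinase-like partner in the MYD88 complex, had the largest difference of the group. Its levels were 6.91, 7.51 and 7.41 in WT and 7.32, 8.76 and 8.97 in KO. KO replicate 1 lay among the WT arrays, while the other two KO arrays were more than 1 log2 unit above all of them. The means of 7.28 ± 0.32 and 8.35 ± 0.90 (SD, n = 3 each) differed by 1.07 with an SE of 0.41 (adjusted p = 0.249).

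Irak1, the kinase that MYD88 recruits together with IRAK4, went the other way. Its levels were 8.17, 8.28 and 8.31 in WT and 8.01, 7.92 and 7.79 in KO. The groups did not overlap, and the difference of -0.35 had an adjusted p of 0.155. Ikbke, a non-canonical IkB kinase, had levels of 6.04, 5.82 and 6.09 in WT and of 5.81, 5.76 and 5.69 in KO. The gap between the groups was small, and the difference of -0.23 had an adjusted p of 0.405. The other 6 lay between -0.05 and 0.24: Irak3, an inhibitory IRAK, at 0.05, Map3k7, which encodes TAK1, at 0.02, Map3k14, the kinase of the non-canonical pathway, at 0.20, Ikbkb, the catalytic subunit, at 0.08, Ikbkg, the scaffold subunit, at -0.05, and Tbk1, a kinase of interferon regulatory factors, at 0.24. Their adjusted p-values were between 0.498 and 0.978.

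The 4 measured NF-kB subunits all missed the threshold. Rel, which encodes the c-Rel subunit abundant in lymphoid and dendritic cells, had levels of 9.64, 10.58 and 10.57 in WT and of 10.30, 11.46 and 11.54 in KO. The array numbered 1 was the lowest of each genotype, and KO replicate 1 was below 2 of the WT arrays. The means of 10.26 ± 0.54 and 11.10 ± 0.70 (SD, n = 3 each) differed by 0.84 with an interval from -0.05 to 1.73 (adjusted p = 0.346). Rela, the transactivating subunit of the canonical dimer, had levels of 8.04, 8.497 and 8.47 in WT and of 8.39, 9.01 and 8.83 in KO. It had the same low array 1 in both genotypes, with a difference of 0.41 (adjusted p = 0.383). Nfkb2, the precursor of the non-canonical pathway, differed by -0.19 (interval -0.53 to 0.15, adjusted p = 0.629), and its partner Relb by 0.09 (adjusted p = 0.855).

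All 9 IkB proteins and ubiquitin regulators were measured, and Nfkbiz rose. Its levels were 8.93, 8.45 and 8.80 in WT and 9.36, 9.94 and 9.90 in KO. Every KO array was above every WT array, with KO replicate 1 the lowest of its group. The means of 8.72 ± 0.25 and 9.73 ± 0.32 (SD, n = 3 each) differed by 1.01 with an SE of 0.20 and an interval from 0.55 to 1.46 (limma adjusted p = 0.0307, exact two-sided permutation p = 0.1). The call was lost when any 1 array other than KO replicate 1 was left out, with adjusted p-values up to 0.127 and differences no smaller than 0.87.

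Nfkbia, which encodes IkB-alpha, the inhibitor degraded on canonical activation, had levels of 10.27, 10.21 and 9.57 in WT and of 10.68, 10.96 and 11.03 in KO. The groups did not overlap, and WT replicate 3 was lower than the other WT arrays. The difference was 0.87 with an interval from 0.40 to 1.34, and its adjusted p of 0.0612 missed the threshold. Bcl3, a nuclear IkB protein, had levels of 8.75, 8.73 and 9.34 in WT and of 9.43, 10.04 and 10.0002 in KO. The groups were separated by the small gap between WT replicate 3 and KO replicate 1. Its difference was 0.88 with an SE of 0.22 (adjusted p = 0.0829). Nfkbie, which encodes IkB-epsilon, had levels of 7.82, 8.03 and 8.36 in WT and of 8.25, 8.91 and 8.95 in KO. KO replicate 1 lay inside the WT range, and the difference of 0.63 had an adjusted p of 0.206.

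Cyld, a deubiquitinase that opposes the pathway, had levels of 8.97, 9.33 and 9.47 in WT and of 8.86, 8.91 and 8.75 in KO. All KO arrays were below all WT arrays, and the difference of -0.42 had an adjusted p of 0.203. Tnfaip3 had levels of 9.78, 9.98 and 10.16 in WT and of 9.21, 10.32 and 10.28 in KO. KO replicate 1 was the lowest of all 6 arrays and the other two KO arrays were the highest, so the mean difference was -0.04 (adjusted p = 0.973). Nfkbib, which encodes IkB-beta, differed by -0.31 (adjusted p = 0.423), Birc3, a ubiquitin ligase of receptor complexes, by 0.16 (adjusted p = 0.656), and Tnip1, a partner of the Tnfaip3 product, by 0.01 (adjusted p = 0.989).

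**Figure D2:**
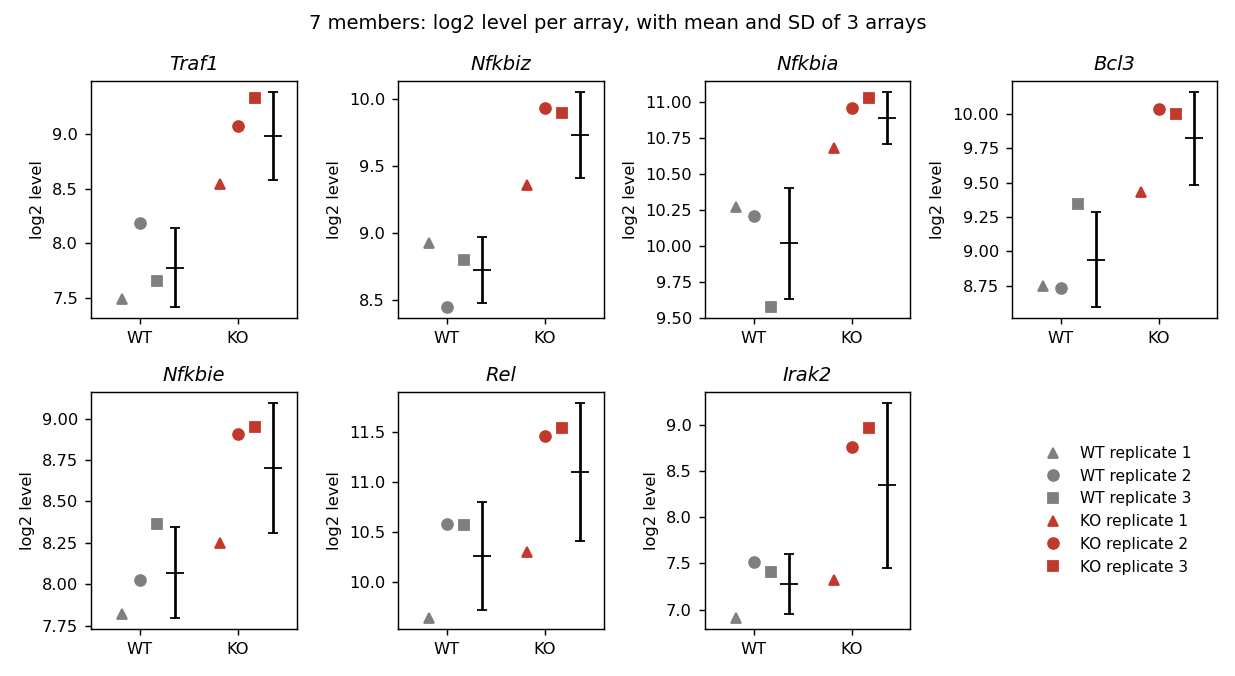
Log2 level (y axis, a separate range per panel that does not start at 0) of 7 genes in WT (grey) and KO (red) arrays, with the symbol giving the replicate number and the bar the mean and SD of 3 arrays. The 7 were chosen after their values were seen, as those called without KO replicate 1. The KO triangle, replicate 1, is the lowest KO array in each panel, and in Irak2, Rel and Nfkbie it lies within the WT range.

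The arrays numbered 1 were low for many of these genes. Arrays numbered 1 were the lowest of both genotypes for 14 of the 33 genes (42.4%), against 13.6% of all genes, and for 3 of the 4 subunits (Rel, Rela and Relb). The median shift of the 33 genes from their WT means was 0.05 in KO replicate 1, 0.16 in replicate 2 and 0.21 in replicate 3. For the IkB and ubiquitin group it was 0.01, 0.35 and 0.30 in the same order. Without KO replicate 1, 7 of the 33 were called higher and 0 lower, where 3.91% of all genes were called higher and 3.61% lower. They were Traf1 at 1.43 (adjusted p = 0.00943), Nfkbiz at 1.19 (adjusted p = 0.00637), Irak2 at 1.59 (adjusted p = 0.00421), Rel at 1.24 (adjusted p = 0.0410), Bcl3 at 1.08 (adjusted p = 0.0206), Nfkbia at 0.97 (adjusted p = 0.0383) and Nfkbie at 0.86 (adjusted p = 0.0277). Without WT replicate 2, Traf1 alone was called. Leaving out WT replicate 1, WT replicate 3, KO replicate 2 or KO replicate 3 left 0 of the 33 called.

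**Figure D3:**
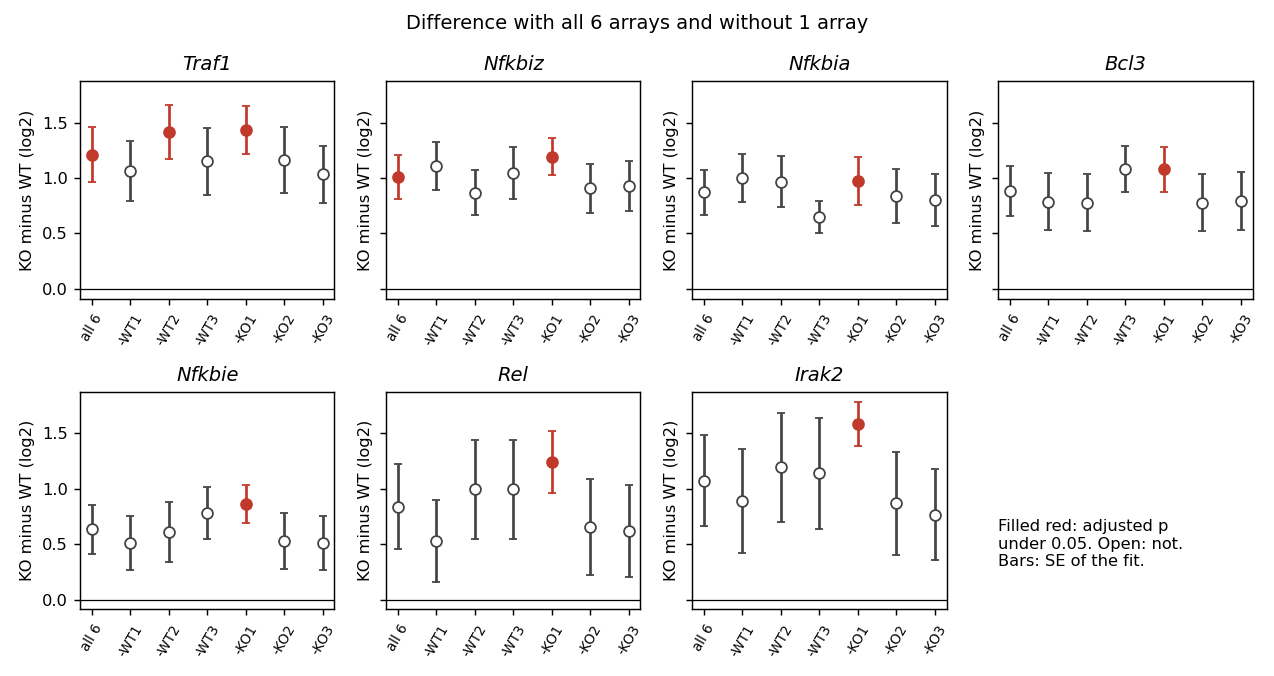
KO minus WT difference (y axis, log2 units) of the same 7 genes with all 6 arrays and with each array left out in turn (x axis), with the SE of the limma fit as bars. Filled red points have an adjusted p under 0.05 and open points do not. All differences are above 0, and for Nfkbia, Bcl3, Nfkbie, Rel and Irak2 the fit without KO replicate 1 is the one with a filled point.

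KO replicate 1 also stood apart in genes of another cell type. The mean level of 10 neutrophil markers was 8.76 there, 5.86 and 5.31 in the other KO arrays, and 5.83, 4.82 and 4.65 in WT. All 10 differences were above 0 and 0 passed the test. B cell markers had mean levels between 5.0 and 5.15 in WT and between 5.71 and 5.99 in KO, with 4 of 9 higher by the test. Plasma cell markers lay between 6.68 and 7.64 in WT and between 7.98 and 8.94 in KO, with 2 of 6 higher, and conventional dendritic cell markers between 6.93 and 7.03 against 7.34 and 7.52, with 4 of 13 higher and 1 lower. T and NK cell markers lay between 4.73 and 5.13 against 4.96 and 5.59, with 1 of 8 higher, and monocyte and macrophage markers between 5.63 and 6.09 against 5.24 and 5.93, with 1 of 9 lower. Over all genes, 2.30% were called higher and 2.08% lower. Genes within a list differed. The plasma cell genes called were Sdc1 and Prdm1, while Mzb1 was lower in every KO array (-0.97, adjusted p = 0.0859). The conventional dendritic cell genes called were Itgax, Cd8a, Flt3, Itgam and, lower, Cd4. In WT, Cd4, Flt3 and Cd8a were already at 10.05, 9.92 and 9.66. Zbtb46 (-0.05), Xcr1 (0.12) and Batf3 (-0.08) were not called. Genes that respond to cell handling had mean levels of 9.70, 10.17 and 9.67 in WT and of 9.84, 10.15 and 10.24 in KO, with 0 of 16 called. Of these 16 differences, 11 were above 0 and 5 below. Atf3 (1.46), Egr1 (0.97) and Zfp36 (0.27) were higher in every KO array, as were 8.71% of all genes. Klf2 (-0.43) was lower in every KO array, as were 11.7% of all genes. The part of these genes in the results above was not tested. In sorted bulk cells, fewer cells of a type and less RNA per cell cannot be told apart.

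A second list held 43 other genes of the pathway, of which 40 were measured. It was also drawn up with earlier results known. In it, 2 rose (5.0%) and 3 fell (7.5%), where 2.30% of all genes rose and 2.08% fell. The median difference was -0.05, against -0.04 over all genes. Peli2, a Pellino ubiquitin ligase that acts on IRAK proteins, had levels of 8.32, 7.85 and 8.28 in WT and of 6.42, 5.67 and 6.49 in KO. The groups were far apart, with a difference of -1.95 (adjusted p = 0.00477). Map3k8, a kinase released when the Nfkb1 precursor is degraded, had levels of 8.75, 8.74 and 8.90 in WT and of 9.48, 9.55 and 9.55 in KO. Its difference was 0.73 (adjusted p = 0.00834), and it and Peli2 kept their calls in all 15 alternatives. Otulin, a deubiquitinase of linear chains, rose by 1.01 (adjusted p = 0.0458), a call lost without any 1 array other than KO replicate 1 (adjusted p up to 0.175). Irf5, a transcription factor that MYD88 signalling activates, had a difference of -0.99 (adjusted p = 0.0149), lost without WT or KO replicate 3 (up to 0.0667). Tlr7, the endosomal receptor of single-stranded RNA, had a difference of -0.60 (adjusted p = 0.0484), lost in 7 of 15 alternatives (up to 0.165), array median centring among them.

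Tnip3, a Tnip1 relative chosen after its values were seen, had levels of 3.95, 4.27 and 3.71 in WT and of 5.28, 7.53 and 8.40 in KO. Its WT arrays were below 4.58, the 25th percentile of the mean levels of all genes, and KO replicate 1 was again the lowest of its group. The difference was 3.10 (adjusted p = 0.0529).

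Of 40 textbook target genes of NF-kB, 39 were measured, 10 rose (25.6%) and 0 fell, with a median difference of 0.28. Over all genes 2.30% rose and 2.08% fell, and the median difference was -0.04. Of the 39 differences, 26 were above 0 and 13 below. In every KO array 18 were higher and 4 lower, against 8.71% and 11.7% of all genes. The 4 lower ones, named after their values were seen, were not called. They were Vcam1 (-1.43, adjusted p = 0.170), Slc2a6 (-0.79, adjusted p = 0.0739), Ccl4 (-0.40, adjusted p = 0.222) and Cd40 (-0.27, adjusted p = 0.345). The list was drawn up with earlier results of these data known, so its share describes the chosen genes and is not independent support. Ptgs2, the inducible prostaglandin synthase, had levels of 7.01, 7.05 and 6.84 in WT and of 10.64, 10.38 and 10.32 in KO. Cd80, a costimulatory ligand of T cells, had levels of 5.22, 5.40 and 5.66 in WT and of 8.53, 8.90 and 8.92 in KO. These were the widest separations of the list, at 3.48 (adjusted p = 2.13e-05) and 3.36 (adjusted p = 6.40e-05). Ier3, an early response gene, rose by 2.48 (adjusted p = 0.0026). Tnfsf9, the ligand of the costimulatory receptor 4-1BB, rose by 2.41 (adjusted p = 0.000573). Cd83, a dendritic cell maturation marker, rose by 1.57 (adjusted p = 0.0131), as did the chemokine gene Cxcl10 (1.57, adjusted p = 0.0104).

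The other 4 that rose were Marcksl1 (1.52), Pim1 (1.47), Il1b (1.399) and Ccr7 (1.24). They are named, like Tnf and Icam1, after their values were seen. Among the 10 that rose, KO replicate 1 was the highest KO array for Ptgs2, Ier3 and Tnfsf9. It lay between the other KO arrays for Cxcl10 and Marcksl1, and was the lowest for Cd80, Cd83, Pim1, Il1b and Ccr7. Tnf had a difference of 0.23 (adjusted p = 0.697) and Icam1 of -0.15 (adjusted p = 0.751). The calls of Ptgs2, Cd80, Ier3, Tnfsf9 and Il1b were kept in all 15 alternatives. Pim1 lost its call without any 1 array other than KO replicate 1 (adjusted p up to 0.168). Cd83 and Marcksl1 lost theirs without WT replicate 3 or KO replicate 2 (up to 0.064 and 0.0599), Cxcl10 without WT replicate 2 or 3 (up to 0.051), and Ccr7 without KO replicate 2 (0.0507). Without WT replicate 3 or without KO replicate 2, 6 of the 39 were called.

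**Figure D4:**
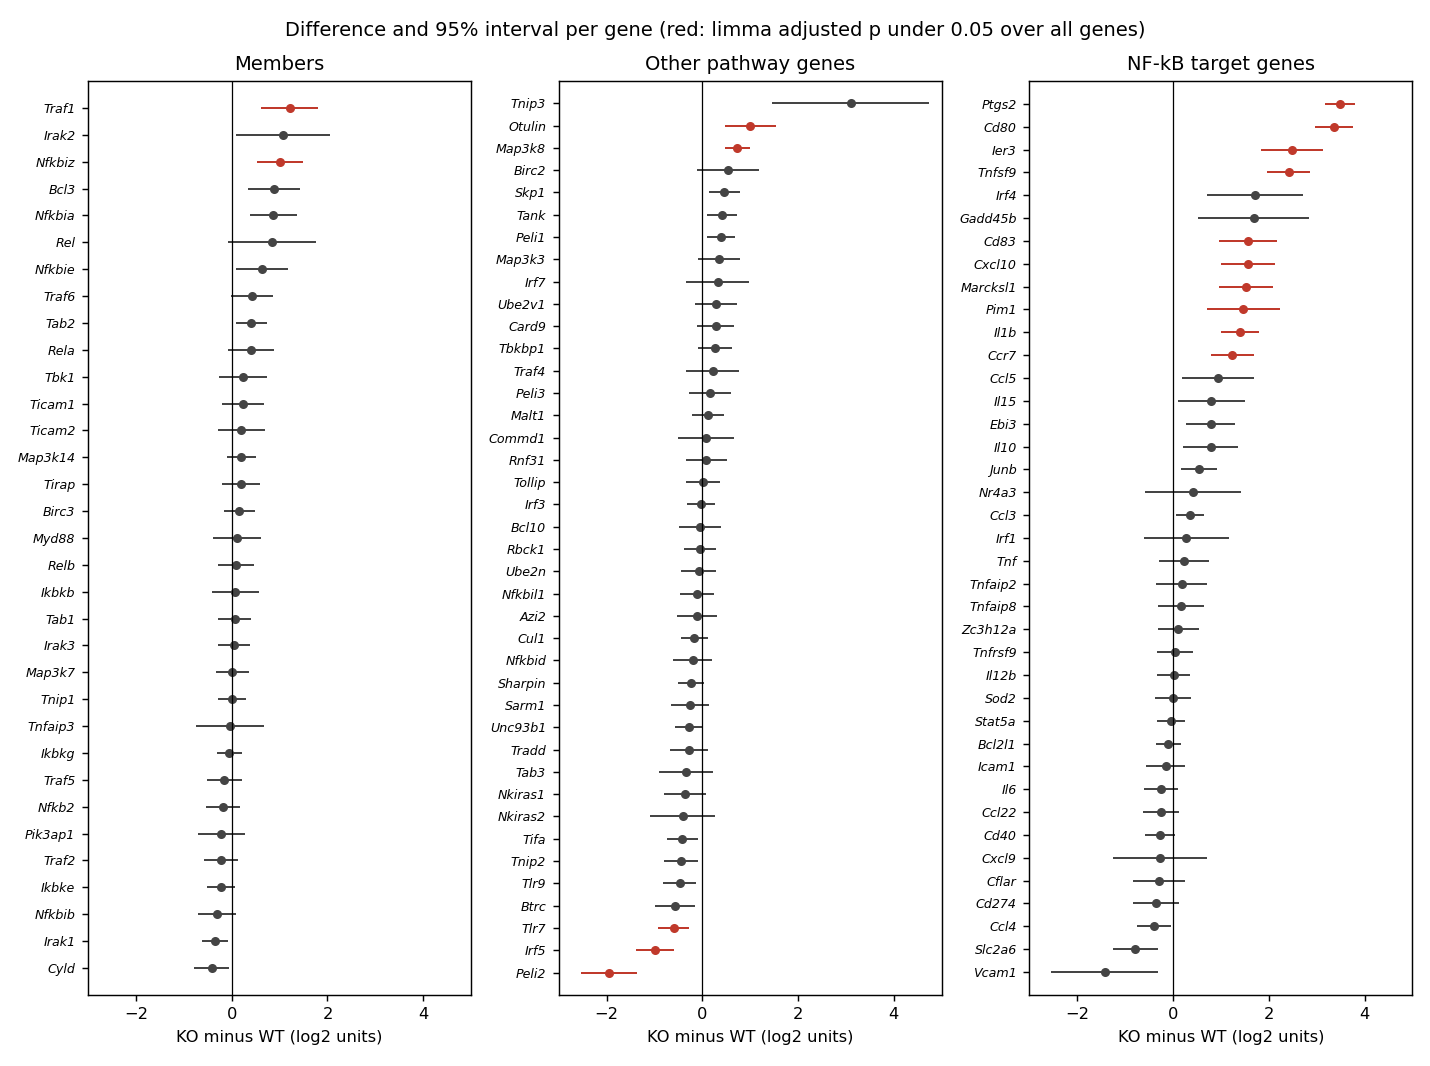
KO minus WT difference (x axis, log2 units) with its 95% interval for the 33 genes (left), 40 other pathway genes (middle) and 39 NF-kB target genes (right), sorted by difference. Red marks an adjusted p under 0.05 over all genes. The left panel lies mostly within 1 unit of 0, and the right panel holds 10 red genes, all above 0.

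The promoters of the set were read for binding motifs, since IkB genes are textbook NF-kB targets. RefSeq windows of mouse assembly GRCm38.p6, from 250 bases before to 50 after the start, were found for 31 of the 37, and Ikbkb, Nfkb1, Nfkbiz, Relb, Tab1 and Ticam2 had none in the table. Both strands were searched. The kappaB consensus was present in 11 of the 31 genes, where 9.55% of all 27025 genes with windows had it. The 11 were Map3k7, Bcl3, Cyld, Tnfaip3, Rel, Tnip1, Nfkbia, Traf3, Nfkbie, Nfkb2 and Irak1. Of the 41 windows of the 31 genes, 34.1% held it, against 8.46% of all 32851 windows. Nfkb2 and Irak1 each had more than 1 matched window. The list holds textbook NF-kB targets, so these shares describe the chosen genes and are not independent support. The consensus was searched as the 10 bases GGGRNNYYCC, with R for A or G, Y for C or T and N for any base. Where matches overlap, as in Rel and Tnip1, the capitals cover all of them. The following 4 are shown because they were among the 7 called without KO replicate 1, with the kappaB match in capitals, 5′ to 3′ on the gene's strand.
Nfkbia, chr12:55492648-55492707, minus strand: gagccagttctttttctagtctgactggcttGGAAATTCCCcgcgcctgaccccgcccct
Nfkbie, chr17:45555569-45555628, plus strand: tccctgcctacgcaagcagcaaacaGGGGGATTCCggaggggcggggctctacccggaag
Rel, chr11:23771027-23771086, minus strand: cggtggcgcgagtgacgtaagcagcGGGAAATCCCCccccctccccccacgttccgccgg
Bcl3, chr7:19822734-19822763, minus strand: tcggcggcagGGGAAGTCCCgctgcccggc

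The match began 29 bases before the start in Nfkbia, 106 before it in Nfkbie, 92 before it in Rel, and at base 3 past it in Bcl3. A match did not go with a higher level throughout. Of the other matched genes that were measured, Irak1, Cyld and Nfkb2 had differences of -0.35, -0.42 and -0.19, Irak1 and Cyld being lower in every KO array, and Map3k7 had one of 0.02. Tnfaip3 and Tnip1, with differences of -0.04 and 0.01, are shown as matched inhibitors of the pathway with a difference near 0. Their matches began 12 and 58 bases before their starts, and Tnfaip3 had a further match at 125 bases before its start that is not shown.
Tnfaip3, chr10:19015411-19015470, minus strand: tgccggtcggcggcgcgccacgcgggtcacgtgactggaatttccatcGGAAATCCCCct
Tnip1, chr11:54962963-54963022, minus strand: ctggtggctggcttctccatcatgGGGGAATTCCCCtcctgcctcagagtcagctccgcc

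IRF8 is known to bind interferon response elements and, with ETS factors, composite elements. The first was searched as GAAA and GAAA separated by any NN, and was present in 3.44% of all windows. Among the set it was in Myd88 alone, which is 2.44% of the 41 windows and no higher than the share of all windows. The match begins 40 bases before the start and is in capitals here.
Myd88, chr9:119340024-119340083, minus strand: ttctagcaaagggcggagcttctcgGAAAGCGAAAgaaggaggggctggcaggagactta

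The composite was searched as GGAA and GAAA separated by any NN. It was present in 2.72% of all windows and in 0 of the 31 genes. Of the genes called without KO replicate 1, Traf1 and Irak2 held no match to any of the motifs searched, and Nfkbiz had no window. These letters alone do not show binding.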

How the data were processed

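Gene expression was measured in 3 WT and 3 KO samples. Per array, the authors deposited a log2 level for each of 34760 probe sets. That the scale is log2 was judged from their range. Software and normalization: not given in the sources used here. Array medians were 5.53 to 5.56, so a shift of all transcripts together cannot be seen. Probe sets with 1 symbol in the platform annotation (21640; 1321 had several, 11799 were not listed) gave 19937 genes, each by its brightest probe set; each measured member had 1 probe set.

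WT and KO were compared with limma 3.58.1 in R 4.3.3 (lmFit and eBayes, no covariates), two-sided, adjusted by Benjamini-Hochberg over all genes, threshold 0.05. Single-gene exact permutation tests used scipy 1.17.1. On simulated data (19937 genes, 200 changed, 5 runs) the comparison found 9.6% of changes of 0.5, 80.4% of 1 and 100% of 2 log2 units, and 5.23% of calls were false. Whether these percentages hold for the real arrays was not tested. The number of arrays limits the precision.

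The members and lists were chosen with earlier results of these data known. All members were named, with every array given for those called; of the other pathway and target lists, up to 6 called genes each by size of difference; and Irf8, Siglech and Ptprc. The 15 alternatives changed the normalization, probe set choice, dim gene filter, variance model, array weights, replicate block or the arrays left out.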

Additional observations from a re-analysis of the deposited data

How the results depend on the processing

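Quantile normalization, array median centring, bright genes alone, averaged probe sets per gene, RefSeq-matched probe sets and a robust variance trend each left 2 members called higher. The members are all bright, have 1 probe set each and share a RefSeq transcript. Bright genes alone, averaged probe sets and RefSeq-matched probe sets therefore could not alter their differences. The variance trend alters only the SEs and p-values, and array median centring moved Traf1 only from 1.209 to 1.208. These settings are thus little test of the 2 calls. With array weights, the replicate block and without both arrays numbered 1, members called higher were 6, 6 and 7, all genes higher 716, 707 and 741 (main 459), and all genes lower 647, 655 and 641 (main 415). Leaving out 1 array gave 0 to 7 members higher, 249 to 780 genes higher, 202 to 719 lower, 1 to 5 other pathway genes higher, 1 to 4 lower, 6 to 13 target genes higher and 0 to 1 lower. Other pathway genes higher were 4 with array weights and 4 without both arrays numbered 1, and target genes lower were 1 with quantile normalization, 1 with the replicate block and 2 without both arrays numbered 1. The replicate block added calls for Rel (adjusted p = 0.00986), Bcl3 (0.0231), Irak2 (0.0345) and Nfkbie (0.0378). Deviations of same-numbered arrays correlated at 0.379, 0.0968 and 0.252, and each array but KO replicate 2 correlated best with its own number, a hint from the data and not from the labels, so the numbers were not taken to pair the samples.

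Differences near 0 changed sign in 9 members. Leaving out 1 array gave -0.043 to 0.298 for Myd88, -0.374 to 0.0063 for Pik3ap1, -0.043 to 0.124 for Tab1, -0.066 to 0.145 for Irak3, -0.11 to 0.119 for Map3k7, -0.041 to 0.292 for Ikbkb, -0.015 to 0.209 for Relb, -0.233 to 0.325 for Tnfaip3, -0.065 to 0.077 for Tnip1 and, among target genes, -0.264 to 0.035 for Icam1. Irak3 was -0.029 with array weights and -0.11 without both arrays numbered 1, Tnfaip3 0.187 and 0.229, and Icam1 0.039 without both. Quantile normalization gave -0.048 for Map3k7 and -0.013 for Tnip1. The causes were not tested.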
